A study of Mus musculus with 3 samples.

Results

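Muc5ac cells are epithelial cells of 3 mouse tumours that carried at least 2 UMIs (unique molecular identifiers, each standing for 1 captured transcript) of Muc5ac. There were 94 of them among 7341 gated epithelial cells and 19302 cells kept in all, and 80 of the 94 came from tumour 3. They were chosen by measured counts. A kept cell had at least 500 genes and at most 20% mitochondrial UMIs. The gate asked for at least 1 UMI of Epcam and of Krt18, at most 2 UMIs of Dcn and Col3a1 together, under 10 UMIs of Gkn1 and Gkn2 per 10000, and at most 1 UMI of Muc6. Levels of these genes therefore describe the choice and are no result.

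Muc5ac encodes the gel-forming mucin that covers the surface of the stomach, where it is made by the foveolar or pit mucous cells, and of the airways. Pit cells secrete it together with trefoil factor 1 and the gastrokines, while the mucous cells deeper in the gastric glands make Muc6 and trefoil factor 2. The healthy pancreas makes little Muc5ac, and its appearance in pancreatic duct lesions and tumours is a known feature of their gastric-type differentiation.

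The series surveyed single cells of tumours of the KPf/fC strain, labelled KPC, a name given to mouse models of pancreatic cancer; the labels used here spell out neither alleles nor the Cre driver. Cells negative for CD45, CD31 and PDGFRa had been sorted, which removes immune, endothelial and many fibroblast cells. There was 1 library per tumour, no control group and no treatment, and age and sex are not stated. The labels do not say that each tumour came from its own animal, so p-values speak only for these tumours. With the tumour as a block, they rest on how the difference between groups varied from tumour to tumour. That spread was estimated partly from other genes, and the spread between the cells within a sum was not measured. The 3 libraries held 5802, 6072 and 7428 kept cells, and 50 to 65 barcodes were shared between any pair of tumours; 1 Muc5ac cell was among those shared by tumours 1 and 3 and 1 among those shared by tumours 2 and 3.

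Tumour 1 held 5 Muc5ac cells among 1913 gated cells, a share of 0.261% (exact 95% interval 0.0849 to 0.609%). Tumour 2 held 9 among 1869, a share of 0.482% (0.22 to 0.912%). Tumour 3 held 80 among 3559, a share of 2.25% (1.79 to 2.79%). The interval of tumour 3 lay above those of tumours 1 and 2, which overlapped; these intervals cover counting error only. When each cell was thinned to 3000 UMIs, with 191 shallower cells of tumour 3 left out, the shares fell to 0.105%, 0.107% and 1.13%, and tumour 3 (0.8 to 1.55%) again lay above the others. Cells with at least 5 UMIs of Dcn and Col3a1 together and none of Epcam or Krt18, which should lack the mucin, gave 0 of 889, 0 of 811 and 0 of 1526 cells with 2 or more Muc5ac UMIs, which allows shares of up to 0.337%, 0.37% and 0.197%. In tumours 1 and 2 the interval of the gated share reached below that allowance, so the share there was not separable from background at this depth; in tumour 3 it lay above. The median UMI count of these stromal cells was 6145, 6823 and 4408, against 8995, 8533 and 7131 in gated cells.

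The Muc5ac count per cell was spread widely. The limit of 2 UMIs fell in a dense part of this range, since 30 of the 94 cells carried 2 UMIs and 110 further gated cells carried 1. At the other end, 21 cells carried 10 UMIs or more and 7 carried 20 or more, with a maximum of 39. The gastrokine limit was less crowded: 12 members had 5 to under 10 gastrokine UMIs per 10000, 36 had none, and 13 cells with 2 or more Muc5ac UMIs lay just outside at 10 to 20. The gastrokine-high cells, which passed the same gate except for that limit, carried Muc5ac more often, with 2 or more UMIs in 9 of 177, 11 of 119 and 40 of 148 cells, or 5.08%, 9.24% and 27.0%. Muc5ac and gastrokines thus also met in 60 cells that the rule leaves out.

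**Figure D1:**
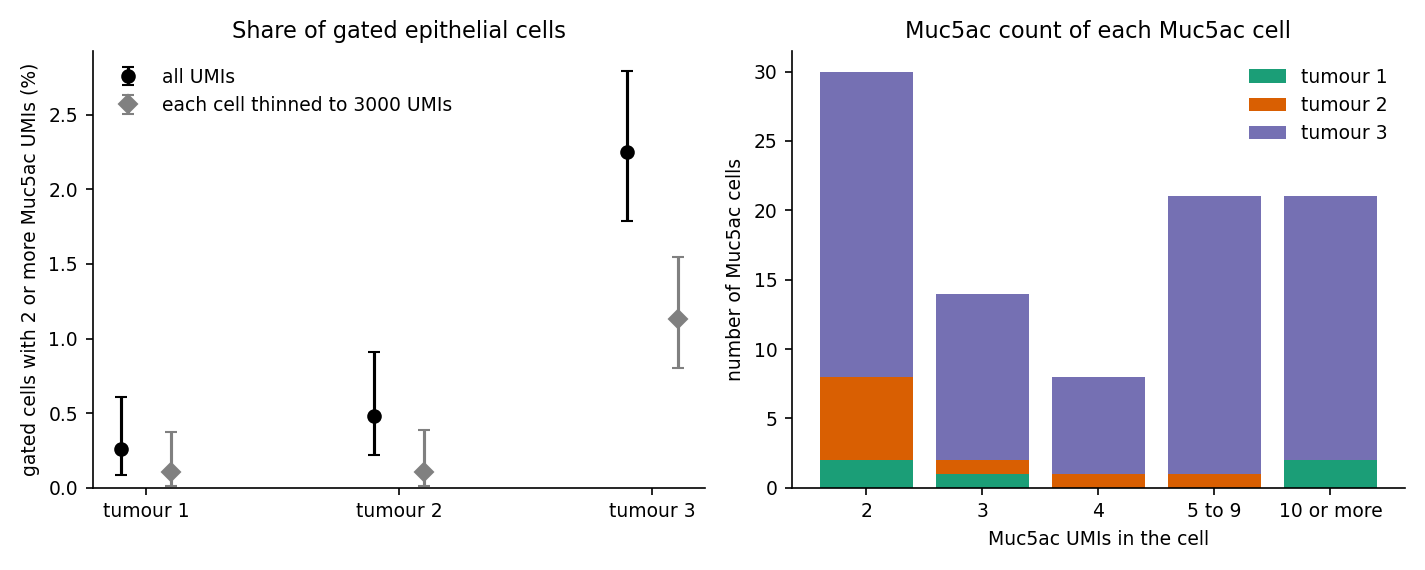
Left, the percentage of gated epithelial cells with 2 or more Muc5ac UMIs in each tumour (y axis, %), before (circles) and after (diamonds) thinning each cell to 3000 UMIs; bars are exact 95% binomial intervals. Right, the number of Muc5ac cells (y axis) by their Muc5ac UMI count (x axis), stacked by tumour; tumour 3 gives most cells of every class, and 19 of the 21 cells with 10 UMIs or more.

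Summed over the cells of a tumour, Muc5ac reached 646, 330 and 568 CPM (UMIs per 1000000 UMIs of the group) in the Muc5ac cells of tumours 1, 2 and 3, from 38, 25 and 559 UMIs. These sums rest on 58839, 75834 and 983924 UMIs in total, so tumours 1 and 2 resolve weakly expressed genes poorly. A Muc5ac cell had a median of 11849, 7162 and 11576.5 UMIs, against 8973, 8540 and 7010 in gated cells with no Muc5ac UMI. The members were deeper in tumours 1 and 3 and shallower in tumour 2.

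Cldn18, the claudin of gastric tight junctions, was the marker that accompanied Muc5ac most steadily. Its level was 119, 92.3 and 763 CPM in the Muc5ac cells of tumours 1, 2 and 3, against 11.6, 20.8 and 99.5 CPM in gated cells without Muc5ac. Each tumour's Muc5ac cells were above its Muc5ac-free cells, although the tumour 2 value lay below the Muc5ac-free level of tumour 3. In tumour 3 the transcript was found in 69 of 80 Muc5ac cells and in 18.1% of Muc5ac-free cells, and after thinning in 68.8% and 12.4%. In tumours 1 and 2 only 1 of 5 and 2 of 9 Muc5ac cells had it.

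The other 2 markers were carried by tumour 3. Clca3a1, of the family of chloride channel accessory proteins, stood at 17, 0 and 46.8 CPM against 3.09, 1.69 and 18.7 CPM, and the tumour 1 value was 1 UMI. Akr1c19, an aldo-keto reductase, stood at 0, 0 and 147 CPM against 32.1, 14.3 and 67.5 CPM. It was thus not found in the 14 Muc5ac cells of tumours 1 and 2, and in tumour 3 it was in 52 of 80. All 4 markers of the foveolar-like label were present in tumour 3, while 1 was missing in tumour 1 and 2 in tumour 2, so the cells are called here by Muc5ac alone. Muc5ac is in the rule and the other 3 were named as markers with results of these data known, so none of them was tested.

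Markers of other cell types were mostly low. The 10 epithelial markers summed to 19490, 10430 and 9701 CPM in Muc5ac cells and 12580, 10660 and 11440 CPM in Muc5ac-free cells. The 10 fibroblast markers summed to 102, 39.6 and 98.6 CPM against 137, 153 and 94.1 CPM, the 10 macrophage markers to 68.0, 145 and 40.7 CPM against 166, 118 and 93.1 CPM, and 9 of the 10 T or NK cell markers were at 0. The 10 endothelial markers were at 0 in tumours 1 and 2 and at 14.2 CPM in tumour 3. The 8 mesothelial markers summed to 323, 343 and 969 CPM against 303, 273 and 734 CPM, and 1 of the 2 tested, Upk1b, was called higher below. Acinar markers were the exception: the 12 summed to 50340, 10190 and 197 CPM in Muc5ac cells and 6857, 2437 and 6714 CPM in Muc5ac-free cells. Cells rich in these transcripts were few: 1 of 5, 2 of 9 and 1 of 80 Muc5ac cells had 50 or more acinar and endocrine UMIs per 10000, against 15.97%, 11.2% and 12.9% of Muc5ac-free cells. None of the 94 cells was called a doublet by Scrublet, which called 1.28 to 1.94% of kept cells.

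Against gated cells with no Muc5ac UMI, Tff1, Agr2, Bcas1 and Aqp1 were called higher in the summed counts of Muc5ac cells and had higher values in each tumour. Fibronectin (Fn1) was called lower and was lower in each tumour, while matrilysin (Mmp7) and lipocalin 2 (Lcn2) were called lower but were not lower in tumour 2. With the tumour as a block, edgeR's quasi-likelihood test called 17 of 11872 genes higher (0.143%) and 33 lower (0.278%) at an adjusted p under 0.05, and 200 and 551 had an unadjusted p under 0.05. The median log2 fold change over all genes tested was -0.17. In 23 of the 50 called genes the 3 values of the groups did not overlap. The share without overlap among all 11872 genes tested was not counted, so lack of overlap is given as description only. The calls depend on the fit: DESeq2 called 3 higher and 4 lower, the fit without the tumour block 0 and 2, limma-voom with sample weights 0 and 0 although 1067 genes had an unadjusted p under 0.05, and edgeR without tumour 3, which left 14 Muc5ac cells, 3 and 8. Genes below are therefore given with their value in each tumour.

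Of the genes called higher, 4 reached 20 CPM and were higher in each tumour. Tff1, the trefoil peptide secreted by pit cells, stood at 1699.6, 3099 and 5797 CPM against 1323, 601 and 650.1 CPM, and the groups did not overlap. Its log2 fold change was 1.89 ± 0.44 (SE), with an edgeR adjusted p of 0.0063; DESeq2 gave an adjusted p of 0.33, and edgeR gave 0.85 without tumour 2 and 0.99 without tumour 3. In tumour 3, 64 of 80 cells had the transcript, and a single cell gave 691 of the 5704 UMIs. Tff1 was thus higher in the Muc5ac cells of all 3 tumours, with the difference smallest in tumour 1.

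Agr2, an endoplasmic reticulum disulfide isomerase that mucin folding requires, stood at 1343, 2109.9 and 118 CPM against 180, 267 and 69.7 CPM. The log2 fold change was 2.11 ± 0.39 (SE; edgeR adjusted p 4.6e-05, and 0.37 with thinned cells). The groups overlapped across tumours, since the tumour 3 value lay below the Muc5ac-free values of tumours 1 and 2. Compared with Muc6 cells, the Agr2 level was 0.51, 0.59 and 0.068 times as high in tumours 1, 2 and 3. Compared with gastrokine-high cells it was 2.20, 1.18 and 0.56 times as high. Its distribution over cells was uneven: all 79 UMIs of tumour 1 came from 1 of the 5 cells, all 9 cells of tumour 2 had it, and in tumour 3 only 12 of 80 did.

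Bcas1, a gene named for its amplification in breast cancer, had the largest log2 fold change among these 4 genes. It stood at 34.0, 65.9 and 22.4 CPM against 3.63, 4.19 and 2.24 CPM, without overlap, with a log2 fold change of 3.42 ± 0.54 (SE; edgeR adjusted p 2.3e-07, DESeq2 adjusted p 5.4e-05). It was found in 1 of 5, 4 of 9 and 14 of 80 Muc5ac cells. Without tumour 3 its log2 fold change was 3.48 with an edgeR adjusted p of 0.99. Compared with gastrokine-high cells, the Bcas1 level was 0.69, 1.27 and 0.58 times as high in tumours 1, 2 and 3. Compared with Muc6 cells it was 3.42, 2.83 and 4.56 times as high. Aqp1, a water channel, stood at 153, 39.6 and 103 CPM against 40.4, 27.0 and 17.2 CPM, with a log2 fold change of 1.85 ± 0.45 (SE; edgeR adjusted p 0.012, DESeq2 adjusted p 0.36, and edgeR 0.99 without tumour 3). The lowest Muc5ac-cell value and the highest Muc5ac-free value of Aqp1 overlapped.

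Muc5b encodes another gel-forming mucin, and its gene is the next protein-coding gene to Muc5ac in the RefSeq gene table. It was higher in tumours 2 and 3 and not found in tumour 1, at 0, 65.9 and 14.2 CPM against 2.14, 1.03 and 0.374 CPM, with a log2 fold change of 4.83 ± 0.58 (SE; edgeR adjusted p 7.1e-13). It was found in 2 of 9 Muc5ac cells of tumour 2 and in 13 of 80 of tumour 3, against 0.265% of Muc5ac-free cells there. The other calls rested mainly on tumour 3. Among them, Pla2g10, a secreted phospholipase, Upk1b, a uroplakin, Nqo1, a quinone reductase, and Cdhr2, a brush-border cadherin, stood at 23.4, 26.4, 23.4 and 18.3 CPM in the Muc5ac cells of tumour 3 and at 0 in those of tumours 1 and 2.

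Pit mucous genes as a list gave 1 higher and no lower call among 20 tested, with 14 positive log2 fold changes and a median of 0.64 against -0.17 over all genes. The summed level of the whole list was 8821, 21180 and 11730 CPM against 6915, 4951 and 6481 CPM, without overlap. Without Tff1 and Tff2 the other 21 genes summed to 4946, 10483 and 3525 CPM against 4284, 3243 and 3977 CPM, so their sum overlapped and was lower in tumour 3. Muc6 cells stood above Muc5ac cells on both sums, at 37270, 45580 and 40790 CPM for the whole list. Without Tff1 and Tff2, Muc6 cells stood at 17761, 20703 and 17391 CPM, above gastrokine-high cells at 10545, 11070 and 8127 CPM. The list sum thus does not mark pit cells alone. Ctse, a gastric aspartic protease, stood at 1292, 1134 and 1407 CPM against 794, 559 and 974 CPM (log2 fold change 0.63 ± 0.38 SE; edgeR adjusted p 0.92), also without overlap. Tff2 stood at 2175, 7596 and 2409 CPM against 1308, 1107 and 1853 CPM, without overlap and with an edgeR adjusted p of 0.38. The pit genes Vsig1 and Anxa10 had higher values in tumours 2 and 3 and lower values in tumour 1, and neither was called. The list of classical pancreatic tumour genes, which shares members with it, gave 3 higher calls (Tff1, Agr2 and Pla2g10) and none lower among 21, with a median of 0.60.

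**Figure D2:**
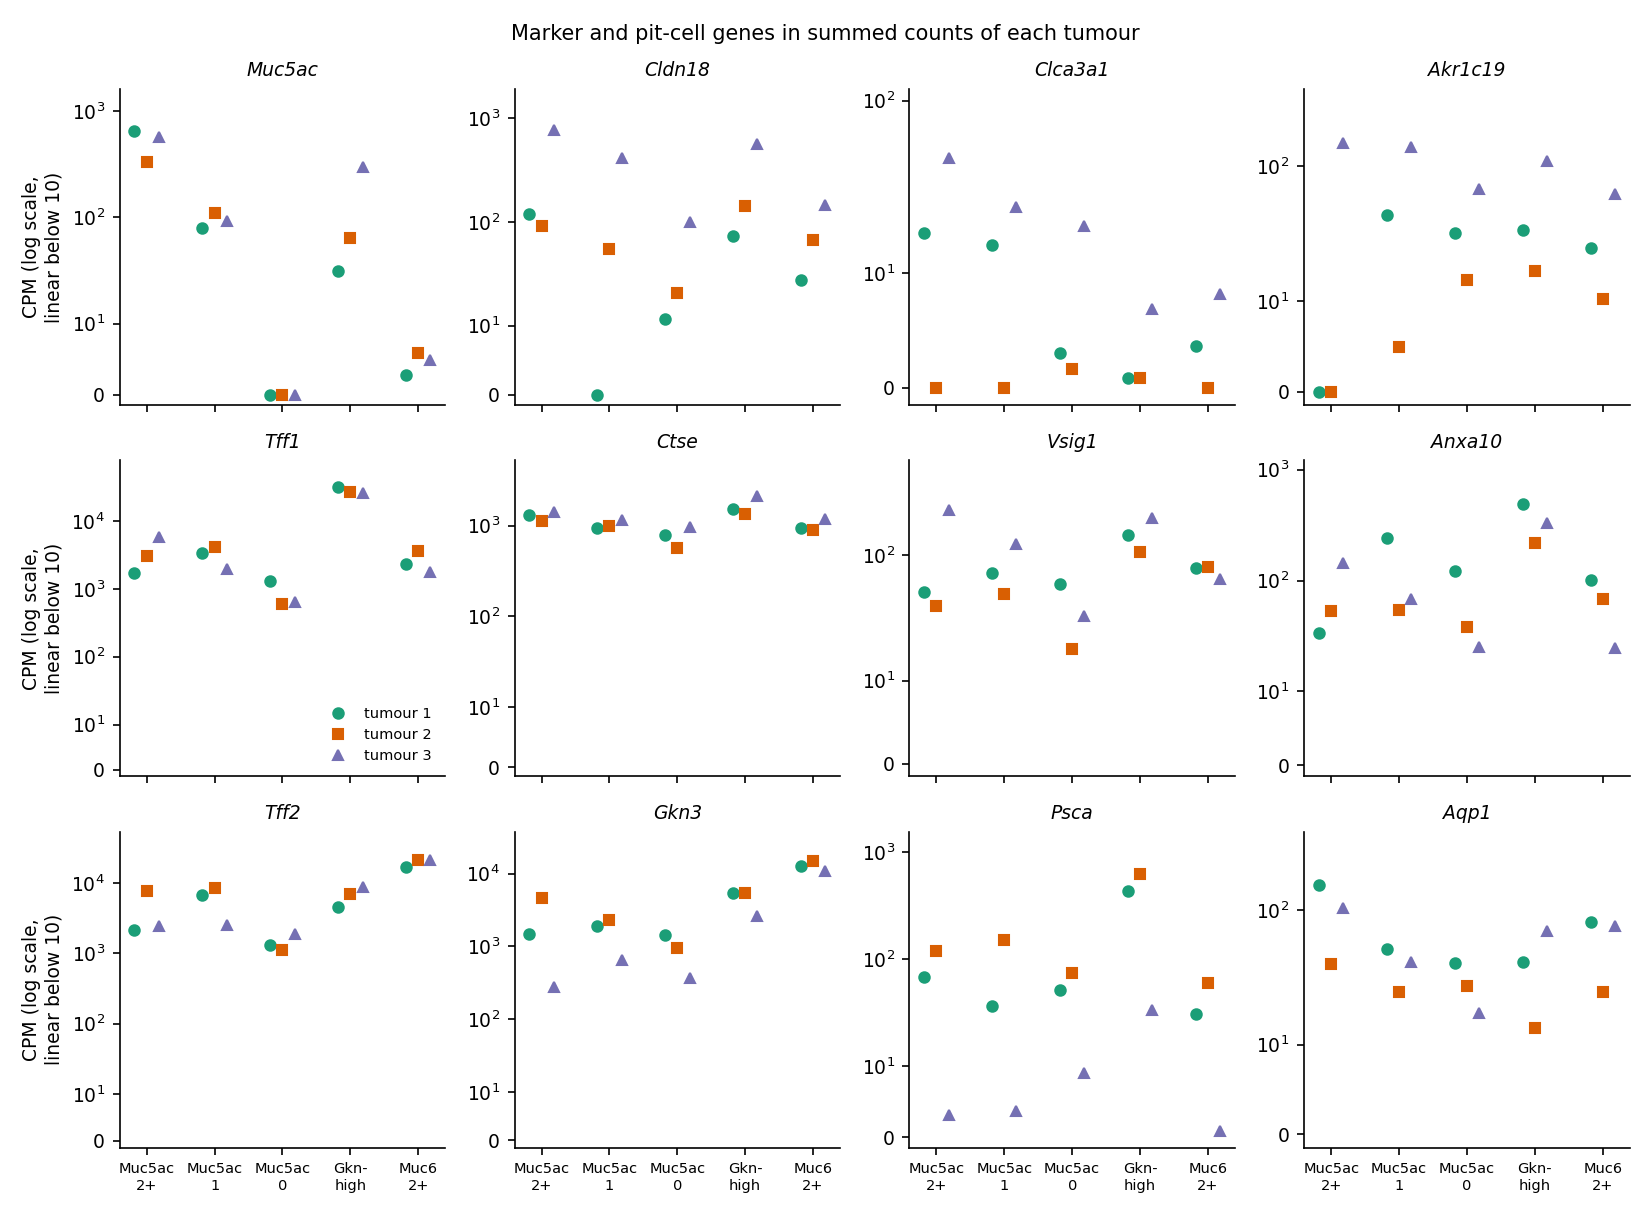
Summed UMIs per 1000000 (CPM, y axis, log scale above 10 and linear below) of 12 marker and pit-cell genes in 5 groups of cells (x axis: gated cells with 2 or more, 1 or 0 Muc5ac UMIs, gastrokine-high cells and Muc6 cells); each point is 1 tumour. Cldn18 and Tff1 are higher with 2 or more Muc5ac UMIs than with 0 in each tumour, while Clca3a1 and Akr1c19 have points at 0.

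Fn1, the matrix protein fibronectin, was lower in each tumour. It stood at 102, 52.7 and 88.4 CPM in Muc5ac cells against 687, 1155 and 912 CPM, so every Muc5ac-cell value lay below every Muc5ac-free value. The log2 fold change was -3.56 ± 0.44 (SE; edgeR adjusted p 2.2e-12), and Fn1 and Ppy were the only genes called without the tumour block. Low Fn1 was not particular to Muc5ac cells. Against gastrokine-high and Muc6 cells Fn1 was not called, with log2 fold changes of -0.37 and -1.17. In tumour 3 those classes stood at 96.8 and 132 CPM. Gadd45a, a stress-response gene, Cald1, an actin-binding protein, Igfbp7, a secreted binding protein, and Tnc, the matrix protein tenascin C, also fell without overlap, with log2 fold changes of -1.98, -1.91, -1.72 and -2.28.

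Mmp7, the metalloproteinase matrilysin of duct-like cells, stood at 0, 145 and 49.8 CPM against 95.1, 137 and 1062 CPM, so tumour 2 did not follow the others. Its log2 fold change was -2.80 ± 0.52 (SE; edgeR adjusted p 5.1e-05). Lcn2, the siderophore-binding lipocalin, stood at 170, 462 and 140 CPM against 883, 429 and 2928 CPM, again with tumour 2 not lower; the log2 fold change was -2.42 ± 0.46 (SE; edgeR adjusted p 0.00011). These were the 2 lower calls among 20 duct genes tested, a list with no higher call and a median of -0.50. Ctla2a, related to cysteine protease propeptides, fell in each tumour, at 0, 13.2 and 206 CPM against 217, 421 and 1011 CPM (log2 fold change -3.18 ± 0.47 SE; edgeR adjusted p 1.5e-08).

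The 12 lowest log2 fold changes that met the naming rule belonged mostly to pancreatic enzymes and hormones. Over the 3 tumours no UMI of the peptide hormone Pyy, the carboxypeptidase Cpb1, the elastase Cela2a or the trypsinogen Try4 was found in Muc5ac cells. Set against a floor of 3 UMIs over the 3 tumours, they were at least 43.6-fold, 18.5-fold, 16-fold and 7.26-fold lower. Cpa1, Cela3b and Klk1, secreted enzymes, Zg16, a secretory granule lectin, Ghrl and Ppy, hormones, Gzme, a granzyme, and Ankrd1, a cardiac ankyrin repeat protein, were the others. Trypsinogens and elastases have near-identical copies, so the split of their reads between genes is uncertain. Endocrine markers, 10 in all, summed to 17, 0 and 9.15 CPM in Muc5ac cells against 237, 289 and 343 CPM. With cells of 50 or more such UMIs per 10000 left out of both groups, Ppy turned to a log2 fold change of 0.87 and Cpa1, Cela3b and Ghrl were no longer called; Cpb1, Cela2a, Try4, Zg16 and Klk1 had too few counts left to be tested. Tff1 was not called there either, with a log2 fold change of 1.96 and an edgeR adjusted p of 0.10, while Bcas1, Agr2 and Aqp1 were. Pyy (edgeR adjusted p 1.4e-05), Gzme and Ankrd1 were called there too, and the count of lower genes was 20.

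**Figure D3:**
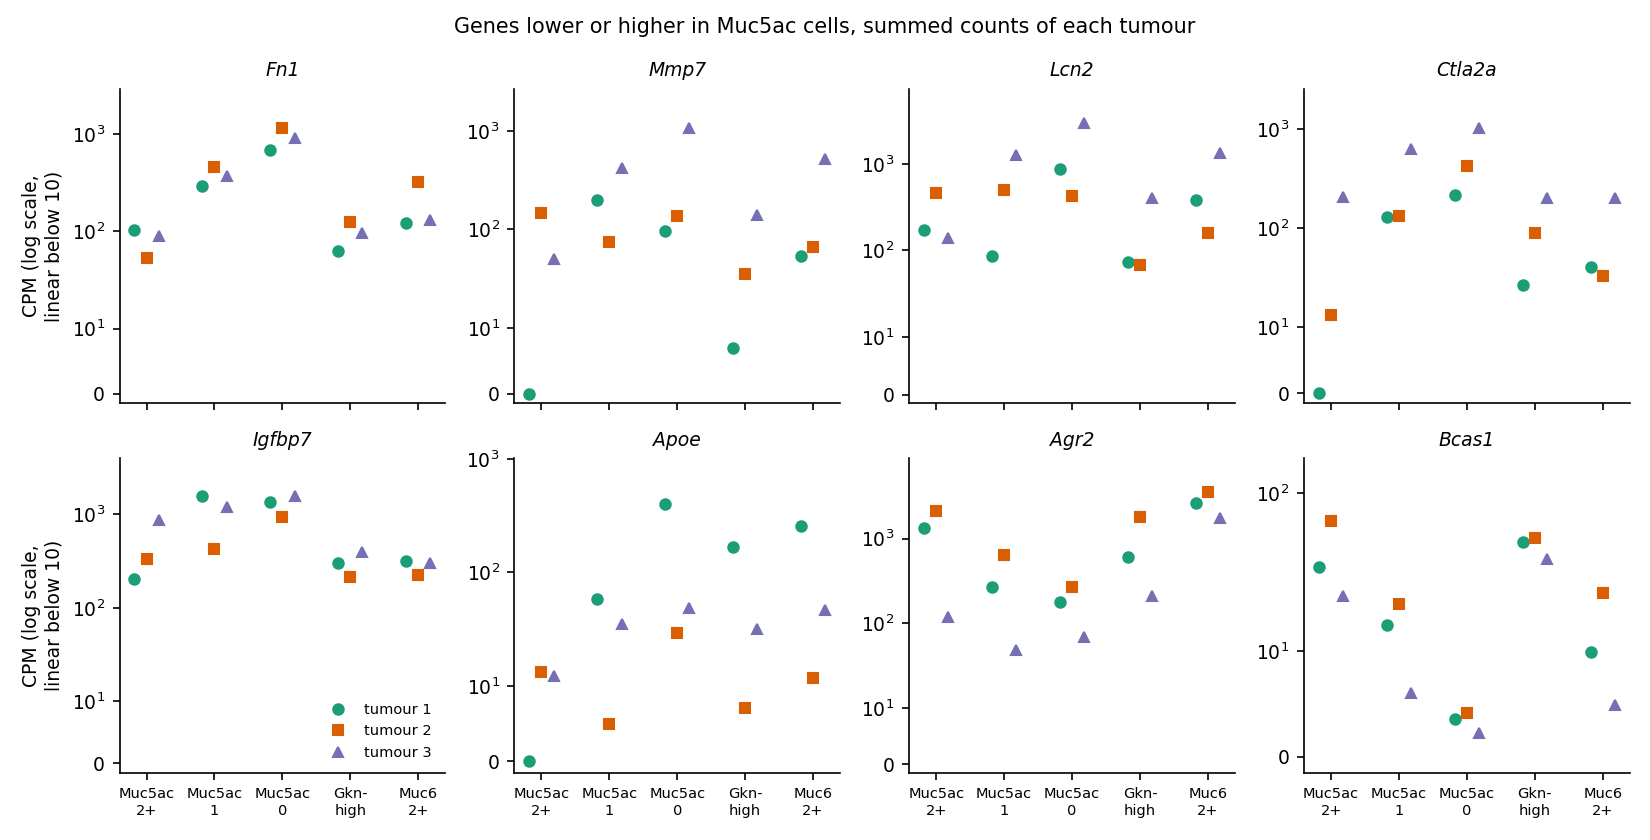
Summed UMIs per 1000000 (CPM, y axis, log scale above 10 and linear below) of 6 genes called lower and 2 called higher in Muc5ac cells, in the same 5 groups of cells (x axis); each point is 1 tumour. Fn1 is lower with 2 or more Muc5ac UMIs than with 0 in each tumour, and Mmp7 and Lcn2 of tumour 2 are not.

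Tumour 3 held enough Muc5ac cells to be described alone, with 80 against 3402 cells. With 1 tumour there is no test, and intervals on these ratios cover counting error only. Genes were taken by size, a rule chosen after seeing the data: at least 50 CPM in the higher group, a UMI in at least 16 Muc5ac cells or 20% of the others, and a ratio of at least 3-fold. Of 2735 genes that could be higher, 23 were (0.841%), and of 2795 that could be lower, 43 were (1.54%). In both tumours 1 and 2, 6 of the 23 (26.1%) were higher, against 15.8% of all genes that could be, and 11 of the 43 (25.6%) were lower, against 35.1%. Most of these genes thus did not keep their direction in both of the other tumours, which had 5 and 9 Muc5ac cells. In tumour 3, gastrokine-high cells lay on the same side of Muc5ac-free cells for 21 of the 23 and 37 of the 43 genes. Muc6 cells did so for 9 and 24. The same share over all genes that could be higher or lower was not counted for these 2 classes. These counts give the side and not the size of a difference, and are description only.

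Among the genes higher in tumour 3, Tff1 was 8.92-fold higher (8.65 to 9.19) and Cldn18, a marker of the label, 7.67-fold (7.06 to 8.32). Vsig1, an adhesion protein of gastric epithelium, was 6.97-fold higher, at 231 against 33.1 CPM, and was found in 66 of 80 cells. Anxa10, a gastric annexin, was 5.75-fold higher but was found in 27 of 80 cells. These 4 genes belong to the gastric surface programme in textbook descriptions, yet 3 of them were found in most cells and Anxa10 was not. Others were Aqp1 (5.96-fold), the chloride channel protein Clic3 (5.92-fold), the cystine transporter subunit Slc7a11 (4.81-fold), the glycine decarboxylase Gldc (4.81-fold), the sialomucin Podxl (4.30-fold), the sialyltransferase St3gal6 (4.27-fold) and the nucleotide sugar transporter Slc35d1 (4.08-fold). Clic3 was in 53 and Podxl in 57 of 80 cells. St3gal6 was not higher in tumours 1 and 2, at 0 and 13.2 CPM against 44.5 and 31.6 CPM.

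The genes lower in tumour 3 were led by Ctrb1, Reg1, Mmp7, Lcn2 and Reg3b. Ctrb1, a chymotrypsinogen, was 60.8-fold lower, at 53.9 against 3273 CPM, with at most 4 UMIs in a Muc5ac cell. It was found in 47.5% of Muc5ac cells and 32.6% of the others, but in 10.0% and 17.3% after thinning, so the order of these shares turned at equal depth. Mmp7 was 21.3-fold lower (16.1 to 28.8) and found in 27.5% against 61.9% of cells, and Lcn2 20.9-fold lower (17.7 to 24.9) and found in 41.2% against 69.5%. The regenerating proteins Reg1 and Reg3b were 23.7-fold and 18.2-fold lower, the iron-binding lactoferrin Ltf 10.4-fold, Fn1 10.3-fold, and the surface proteins Ly6a and Ly6e 7.59-fold and 6.31-fold. Sox11, a transcription factor, was 11.6-fold lower, found in 7 of 80 cells and 24.7% of the others. Several of these did not hold elsewhere, and some summed levels were reversed. Ctrb1 stood at 24015 and 0 CPM in the Muc5ac cells of tumours 1 and 2, against 2237 and 343 CPM. Reg1 stood at 23692 and 10167 CPM there against 3374 and 1909.8 CPM, and Reg3b at 17862 and 2571 CPM against 2059 and 755 CPM. The sums of both were thus higher in Muc5ac cells of tumours 1 and 2. In tumour 1 these sums, and that of Ctrb1, rested mainly on single cells. The largest counts in a cell were 1412 UMIs of Ctrb1, 1391 of Reg1 and 1048 of Reg3b. The medians over the 5 cells were 0, 1 and 1 UMIs. In tumour 2, acinar and endocrine UMIs had a median of 5.28 and a maximum of 800 per 10000 over the 9 cells. Ltf was lower in tumour 1, at 17 against 94.2 CPM, and higher in tumour 2, at 1978 against 296 CPM.

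**Figure D4:**
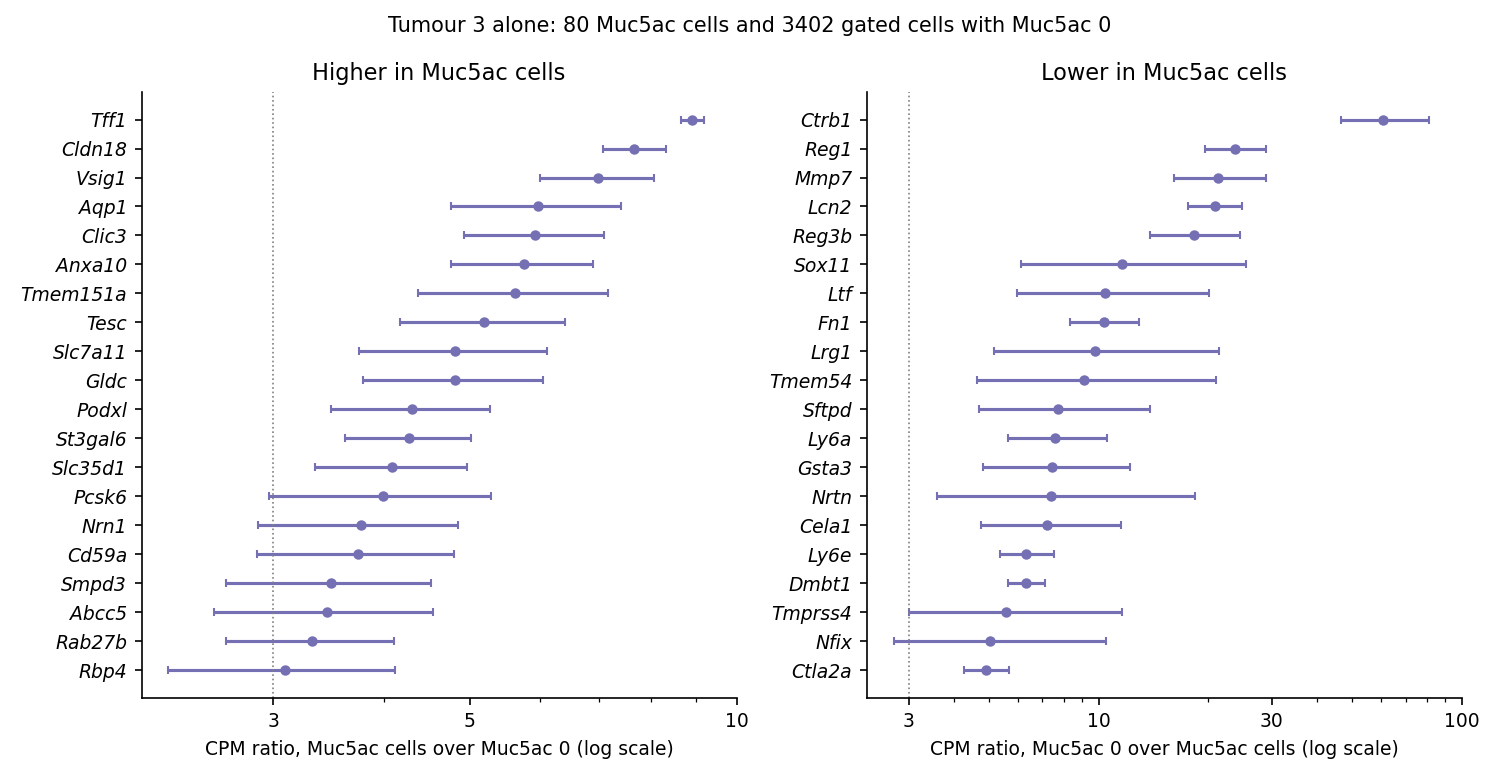
Ratio of summed CPM in tumour 3 (x axis, log scale) for the 20 genes with the largest ratios in each direction: left, Muc5ac cells over gated cells with Muc5ac 0; right, the reverse. Points are ratios, bars are 95% intervals that cover counting error only, and the dotted line marks 3-fold; Tff1 at 8.92-fold and Ctrb1 at 60.8-fold lead the panels.

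Within tumour 3 the Muc5ac cells were compared by their Muc5ac count, in classes of 41 cells with 2 to 4 UMIs, 20 with 5 to 9 and 19 with 10 or more. The classes differed in depth, with median UMI counts of 11243, 11895.5 and 13128, and all come from 1 tumour, so they are described without a test. Tff1 stood at 4728, 5878 and 7674 CPM across the classes and Aqp1 at 71.1, 111 and 152 CPM. Cldn18 stood at 694, 699 and 949 CPM and was found in 19 of 19 cells of the top class. Tff2 and Lcn2 ran the other way: Tff2 stood at 3494, 2546 and 301 CPM and Lcn2 at 222, 94.6 and 34.3 CPM. Cells with the most Muc5ac thus had the highest summed Tff1 and the lowest summed Tff2 of the 3 classes, although Tff2 was found in 10 of 19 of them. A single cell held 691 of the 5704 Tff1 UMIs of tumour 3. The class of that cell is not given, and the order of Tff1 without it was not tested. Agr2 peaked in the middle class, at 94.0, 292 and 0 CPM, from 6, 6 and 0 cells. The EGF receptor ligand Areg stood at 130, 28.8 and 45.7 CPM. Vim, the intermediate filament of mesenchymal cells, stood at 1060, 1135 and 1384 CPM.

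**Figure D5:**
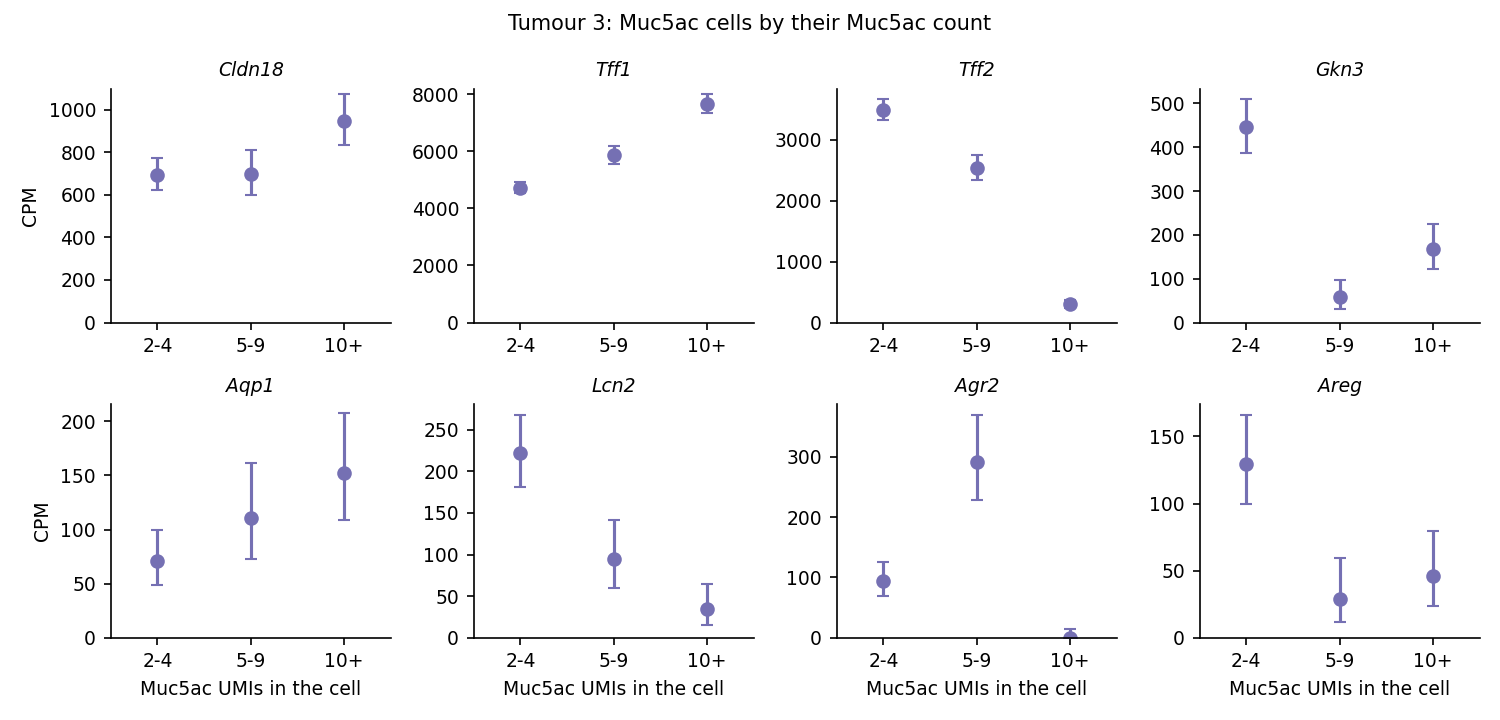
Summed CPM (y axes, linear) of 8 genes in the Muc5ac cells of tumour 3, by Muc5ac UMIs in the cell (x axis; 41, 20 and 19 cells); bars are exact 95% Poisson intervals, which cover counting error only. Tff1 and Aqp1 are highest and Tff2 and Lcn2 lowest in the cells with 10 or more Muc5ac UMIs.

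The gastrokine-high cells are another gated class defined by pit-cell genes. They number 177, 119 and 148 and differ by the gastrokine limit, so Gkn1 and Gkn2 were not tested. Most other pit genes had lower values in Muc5ac cells. The classes were split by gastrokine level, so values of genes that vary with the gastrokines are not independent of that split. How much of the lower pit gene values the split sets was not tested. The edgeR test called 6 of 7604 genes higher in Muc5ac cells (0.0789%) and 33 lower (0.434%), with a median log2 fold change of -0.07; DESeq2 called 5 in all, and edgeR without tumour 3 called 6. Among 18 pit genes tested none was called higher and 5 were called lower, 1 had a positive log2 fold change, and the median was -1.16. Tff1 itself stood at 1699.6, 3099 and 5797 CPM against 31489, 27214 and 26305 CPM (log2 fold change -3.37 ± 0.37 SE; edgeR adjusted p 3.8e-07), so its level in Muc5ac cells lay between Muc5ac-free and gastrokine-high cells in each tumour.

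Several other secretory and defence genes were lower than in gastrokine-high cells. The hydrogen peroxide-producing oxidase Duox2 stood at 34.0, 13.2 and 2.03 CPM against 141, 94.1 and 49.2 CPM, and its maturation factor Duoxa2 at 68.0, 79.1 and 5.08 CPM against 317, 160 and 121 CPM. Galnt6, a mucin O-glycosylation enzyme, and Shh, the morphogen sonic hedgehog, were at 0 in the Muc5ac cells of tumours 1 and 2, and stood at 2.03 and 3.05 CPM in tumour 3. Prap1, a secreted proline-rich protein, and Tmem54 were the remaining genes named lower, with log2 fold changes of -4.16 and -3.11. The genes named higher were Reg3g, an antimicrobial lectin (log2 fold change 2.48 ± 0.40 SE; edgeR adjusted p 0.00037), Crip2, Fbln2, a matrix fibulin, and the transcription factor Klf2. Reg3g stood at 986, 765 and 109 CPM against 43.3, 111 and 60.7 CPM, but all of its UMIs in tumour 1 came from 1 of 5 cells and in tumour 3 it was in 9 of 80. Crip2, at 153, 119 and 198 CPM against 26.8, 44.9 and 49.2 CPM, did not overlap.

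Against the 222, 88 and 156 Muc6 cells, the Muc5ac cells had lower levels of Tff2, Pgc and Gkn3 and of 5 of 12 gland mucous genes, which were Aqp5, Sox9, Gpx2, Pigr and Spink4. The edgeR test called 16 of 7490 genes higher (0.214%) and 28 lower (0.374%), with a median log2 fold change of -0.10; DESeq2 called 21 in all, and edgeR without tumour 3 called 6. Tff2, made with Muc6 in gastric glands, stood at 2175, 7596 and 2409 CPM against 17165, 21227 and 21621 CPM (log2 fold change -2.73 ± 0.41 SE; edgeR adjusted p 0.0012). The pepsinogen Pgc, the water channel Aqp5 and the progenitor transcription factor Sox9 were lower too, with log2 fold changes of -4.30, -2.69 and -1.53. No gland mucous gene was called higher. Tff2, Gkn3 and Pgc were the 3 lower calls among 16 pit genes tested, with none higher and a median of 0.09. Gp2, a zymogen granule membrane protein, and C2cd4b were at 0 in Muc5ac cells, at least 37.3-fold and 9.69-fold lower. Galnt6, the membrane protein Tmem45a and the hyaluronan-binding protease Habp2 were also among the lowest.

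Genes higher than in Muc6 cells were of mixed kinds. The keratin Krt20, found in surface cells of stomach and gut, stood at 408, 277 and 139 CPM against 110, 82.6 and 31.9 CPM, without overlap (log2 fold change 1.75 ± 0.33 SE; edgeR adjusted p 0.011). Cpe, a prohormone-processing carboxypeptidase, stood at 850, 132 and 304 CPM against 50.2, 41.9 and 45.8 CPM and was found in 63 of 80 Muc5ac cells of tumour 3. The neuropeptide Npy, the cornified envelope protein Sprr1a, the intermediate filament Nes, the membrane protein Fxyd5 and Mcpt8, a mast cell protease family member, completed the named genes. Mcpt8 and Npy rested on fewer cells, 14 and 19 of 80 in tumour 3. Krt20 and Cpe were thus higher in Muc5ac than in Muc6 cells in each tumour. The 3 comparisons share the same Muc5ac cells, so their calls are not independent of each other.

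Most other programmes gave few or no calls against Muc5ac-free cells. Among mucin glycosylation and folding genes 1 of 23 was higher (Agr2) and none lower, with a median of -0.20. Gcnt3, an enzyme that builds branched mucin glycans, stood at 153, 119 and 117 CPM against 66.1, 55.8 and 43.0 CPM, without overlap and with an edgeR adjusted p of 0.25. Of 23 secretory transcription factor and endoplasmic reticulum stress genes and 29 endodermal transcription factors none was called, with medians of 0.09 and 0.13. Gata5, a gastric and endodermal factor, stood at 34.0, 52.7 and 52.9 CPM against 29.9, 20.9 and 18.5 CPM (edgeR adjusted p 0.63). Intestinal and goblet genes gave 1 higher (Cdhr2) and 2 lower (Fcgbp and Zg16) among 16, with a median of -0.31, and the 31 detoxification genes 1 higher (Nqo1), with a median of -0.39.

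Epithelial-mesenchymal genes gave 1 lower call (Fn1) and none higher among 20, with a median of -0.35. Vim differed between tumours, at 391, 65.9 and 1165 CPM in Muc5ac cells against 555, 1041 and 447 CPM. It was thus higher in tumour 3 and lower in tumours 1 and 2. The 22 G2 and M phase genes gave no call, and their summed level was 0, 26.4 and 301 CPM against 373, 436 and 164 CPM. Mki67, a proliferation marker, was found in 5 of the 94 cells, all in tumour 3. Basal-like, S phase, interferon, hypoxia, EGF receptor, cholesterol synthesis and claudin genes gave no call in either direction.

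The authors' deposited table of 19 clusters placed cluster 5 first or second for each of the 4 markers. Its log2 fold change for Muc5ac was highest in clusters 1 and 5 (2.43 and 2.37) in the authors' deposited table. The same table gave Cldn18 3.18 in cluster 5 and 1.80 in cluster 1, and Akr1c19 2.04 and 1.89, so these clusters led for both, in the authors' deposited table. Clca3a1 was highest in clusters 5 and 18 there (3.93 and 3.68 in the authors' deposited table), and unlike the other 3 markers it was below 0 in cluster 1, at -0.75 in the authors' deposited table. In cluster 18 the authors' deposited table gave Muc5ac, Cldn18 and Akr1c19 -2.88, -4.12 and -3.40. Other genes did not follow the markers. For cluster 5 the authors' deposited table gave Tff1, Agr2 and Mmp7 -2.04, -4.59 and -0.60. For cluster 1 the authors' deposited table gave them 0.96, 0.26 and 4.70, the last being the highest Mmp7 value of the 19 clusters. That table carries no sample, so it does not say how each tumour contributed to these clusters.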

How the data were processed

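The authors deposited UMI counts per gene and cell as whole numbers, not normalized, for 10x 3' v2 libraries; tumours follow from barcode endings, per the labels. Per the submitters' processing notes, Cell Ranger 2.1.1 and Seurat 3.0 were used, for steps they do not name; genome build: not given in the sources used here. A table of cluster log2 fold changes was also deposited by the authors. Members and gene lists were chosen with earlier results of these data known.

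Counts were summed per tumour and group of cells and divided by total UMIs (CPM). Sums were tested with edgeR 4.0.16 (R 4.3.3; TMM, filterByExpr, quasi-likelihood, Benjamini-Hochberg over all genes tested), with the tumour as a block because both sums of a tumour come from the same library. The genes of the rule and the markers stayed in library sizes and were not tested. A minimum of 20 cells per group and tumour had been planned; only tumour 3 reached it, so the fit used all 3 tumours without it, with sums of 5, 9 and 80 Muc5ac cells. The step was also run on simulated counts with a fixed dispersion. These do not copy the unevenness between cells in sums of 5 and 9 cells, so that run says nothing about the reliability of the calls. Genes were named by rank of log2 fold change among calls with 1 sign in each tumour and at least 20 CPM in the higher group (12 per direction, 6 for the other classes), and from the lists; genes outside this rule, such as Gadd45a and Ctla2a, were chosen after their values were seen. Alternatives used DESeq2 1.42.0, limma 3.58.1, Scrublet in scanpy 1.11.5, other limits and thinned cells. Median UMIs per gated cell were 7131 to 8995.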

Additional observations from a re-analysis of the deposited data

How the results depend on the processing

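Sums of 5 and 9 cells limit tumours 1 and 2, and the counts of calls moved with most settings. Genes higher than in Muc5ac-free cells (17) numbered 28 with RLE size factors, 3 with DESeq2, 0 with limma-voom with sample weights, 6 with thinned cells, 46 at 5 or more and 31 at 1 or more Muc5ac UMIs, and 3 to 27 with 1 tumour left out (3 without tumour 3). Genes lower (33) numbered 4, 0, 10, 69 and 51 under DESeq2, limma-voom, thinned cells and the 2 Muc5ac limits, 20 without cells rich in acinar and endocrine UMIs, and 8 to 43 with 1 tumour left out (8 without tumour 3). Calls against gastrokine-high cells (39) numbered 18 with RLE size factors, 78 without a low-count filter, 5 with DESeq2, 21 with limma-voom and 6 to 90 with 1 tumour left out. Calls against Muc6 cells (44) numbered 118 without the filter, 21 with DESeq2, 16 with limma-voom and 6 to 161 with 1 tumour left out; in both, 6 was the count without tumour 3. Limma-voom and the acinar limit were chosen after seeing the data, as was dropping the planned minimum of 20 cells, which leaves tumour 3 alone and no test.

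Without the replicate block, edgeR called 0 genes higher and 2 lower (Fn1 and Ppy) than in Muc5ac-free cells, 0 against gastrokine-high cells and 0 against Muc6 cells, with 701, 341 and 614 genes at an unadjusted p under 0.05. Of the 50 genes called against Muc5ac-free cells, 50 kept their sign with RLE size factors, 50 with DESeq2, 48 without the block and 42 of the 47 tested without tumour 3. Ppy turned to a log2 fold change of 0.87 without cells rich in acinar and endocrine UMIs. The median log2 fold change over all genes was -0.17 as reported, -0.45 without the filter and -0.55 without tumour 3. The share of gated cells with 2 or more Muc5ac UMIs fell on thinning, as given above, and tumour 3 stayed highest. The causes of these shifts were not tested beyond the number of cells each setting leaves.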
